A study of Homo sapiens with 6 samples.

Results

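Translation initiation factors were examined as a family on Affymetrix arrays of 2 human colon cancer cell lines, E1 and HCT116. The family was taken as the probe sets whose platform annotation gives a single gene symbol beginning EIF1 to EIF6, without the eIF2 kinases and without EIF1AY. This gave 81 probe sets for 39 of the 11963 genes with a symbol, and a further 8 probe sets that carry several symbols were left out. Each gene was represented by the probe set with the highest mean over the 6 arrays, and 20 of the 39 genes had more than 1.

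E1 is described by the submitters as a metastatic line derived in vivo, and its cell line field reads HCT116. HCT116 itself is an established colon cancer line that they call poorly metastatic. No treatment, time or genetic change is given for either line, and whether E1 is 1 clone or a mixed population is not stated. Each line has 3 arrays, called triplicates with no word on separate cultures, so p-values measure only the spread between arrays, which may be technical.

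Initiation factors bring the small ribosomal subunit, the initiator tRNA and the mRNA together. eIF2 carries the initiator tRNA, eIF2B recharges eIF2 with GTP, and eIF1 and eIF1A guard the choice of start codon. eIF3 is the large scaffold on the small subunit. The eIF4 factors recognise the cap and unwind the leader, a step that eIF4E-binding proteins block when mTOR signalling is low. eIF5 and eIF5B drive hydrolysis of GTP and joining of the large subunit, eIF6 keeps the large subunit free, and eIF5A, which carries the modified amino acid hypusine, relieves stalled ribosomes. Colon cancers often depend on the mTOR and MYC pathways that feed into these factors.

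Many mRNAs of the translation machinery begin with a C followed by a run of pyrimidines, the terminal oligopyrimidine (TOP) start through which mTOR controls their use. RefSeq promoter windows of 300 bases, 250 before and 50 from the annotated start on GRCh38.p14, were found for 32 of the 39 genes, 44 windows in all. A start of C followed by at least 4 letters that are each C or T was present in 7 of the 44 windows, or 15.9%, against 4.07% of all 35116 windows. All windows means those of 27305 RefSeq genes, whether or not the arrays read them. Neither here nor for the motifs below were the members set against other genes bright on the arrays. These 7 starts are shown because the start sequence played no part in choosing the genes. Each is given 5′ to 3′ as 30 bases, with the pyrimidine run in capitals, its first capital being the annotated start.
EIF2D, chr1:206612454-206612483, minus strand: cctggtttccagccgggcCCTTTTCgcggc
EIF2S3, chrX:24054938-24054967, plus strand: gccggggtgatttccttcCTCTTTTggcaa
EIF3D, chr22:36529155-36529184, minus strand: gctgcgcgcgcatgtttcCTCTTTTCCTgg
EIF3F, chr11:7987319-7987348, plus strand: catttccgcttccgcctcCTTCTTTCTCga
EIF3K, chr19:38619170-38619199, plus strand: cgtttccgtttccaccacCTCTTCCTgttc
EIF3M, chr11:32583813-32583842, plus strand: gtcgcgcggcccagttccCTTTTCCggtcg
EIF4B, chr12:53006438-53006467, plus strand: tgattgcctcatccgggtCTTTTgcgttct

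The MYC-type E-box, the letters CACGTG, which read the same on both strands, was present in 10 of the 44 windows, or 22.7%, against 7.26% of all windows. The letters GGGCGG, the core of an SP1 site, were found on either strand in 77.3% of the members' windows and 45.0% of all windows. EIF4E, a long-known MYC target that encodes the cap-binding protein, had 2 E-boxes in its window, as did EIF4G1 and EIF5A2. Those of EIF4E and EIF4G1 are shown with the E-box in capitals, since these 2 genes of the same complex gave different values on the arrays. A match says only that the letters are present.
EIF4E, chr4:98929341-98929370, minus strand: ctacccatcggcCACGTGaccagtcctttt
EIF4E, chr4:98929188-98929217, minus strand: ggacatatccgtCACGTGgccagaagctgg
EIF4G1, chr3:184314450-184314479, plus strand: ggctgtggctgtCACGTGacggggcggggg
EIF4G1, chr3:184314527-184314556, plus strand: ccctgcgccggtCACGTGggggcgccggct

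The values below are linear probe set intensities. Each fold change is the E1 mean of log2(intensity + 32) minus the HCT116 mean, and SE is its standard error in limma. The offset understates changes of dim genes. A gene counted as called where its p, adjusted across the 11963 genes by Benjamini-Hochberg, was under 0.05. Intensities of different probe sets cannot be compared as levels.

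The E1 arrays were of 2 kinds. The ratio of signal at the 3′ end to signal at the 5′ end of the GAPDH control transcript was 0.803 on E1 array 1, 34.1 on E1 array 2 and 71.9 on E1 array 3, against 0.774 to 0.811 on the HCT116 arrays. Fold changes are therefore also given for E1 array 1 alone and for E1 arrays 2 and 3 where results turn on the split. An E1 arm of 1 array has no spread of its own, so its p-values rest on the HCT116 arrays and assume that E1 varies like them. Among 13 colon epithelial markers, EPCAM, the epithelial adhesion molecule, read 1691, 2950 and 3428 in E1 and 1956, 2009 and 1885 in HCT116. KRT18, a keratin of simple epithelium, read 5677 to 6285 in E1 and 7509 to 8466 in HCT116. Its partner KRT8 read 2862, 372 and 103 in E1 and 4693, 3169 and 4352 in HCT116, and KRT19 read 3114, 2223 and 1172 in E1 and 3561, 3107 and 3952 in HCT116. On E1 arrays 2 and 3 EPCAM was called higher (0.70, adjusted p = 0.0400) and KRT8 lower (-4.12, adjusted p = 0.00701), and the part of these shifts in the results was not tested. The intestinal genes CDX2, VIL1 and CDH17 were at or under 41.4 in E1 and 22.5 in HCT116. Summed over 8 blood cell markers, of leukocytes except for the red cell gene HBB, the signal was 319 to 442 in E1 and 334 to 386 in HCT116. HBB alone read 181, 90.4 and 218 in E1 and 99.7, 122 and 90.1 in HCT116. The leukocyte antigen PTPRC was at or under 7.60 in E1 and 15.7 in HCT116, whereas CD3E read 82.7, 60.2 and 83.3 in E1 and 132, 79.9 and 86.9 in HCT116.

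None of the 39 genes was called between the lines, higher or lower, where 0.217% of all genes were called higher and 0.201% lower. Before adjustment, with p under 0.05, 0 members were higher, against 5.29% of all genes, and 6 were lower, EIF4G1, EIF3G, EIF5A, EIF2B1, EIF2S3 and EIF6, against 9.70% of all genes. Of the 5802 genes with a mean intensity of at least 100, which include 38 of the 39 members, 376 were higher and 803 lower. Of the 39, 29 had a fold change smaller than 0.5 in size on the log2 scale, a share of 74.4% against 72.9% of the 5802 genes with a mean intensity of at least 100. The family's median log2 fold change was -0.13, beside -0.01 for all genes and -0.03 for those brighter genes. In 7 of the 39 genes all E1 arrays lay below all HCT116 arrays, which held for 10.7% of all genes and 13.0% of the brighter ones, and in 0 did they all lie above, which held for 8.18%. In RNA from whole cultures, fewer cells that express a gene and less RNA per cell cannot be told apart.

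**Figure D1:**
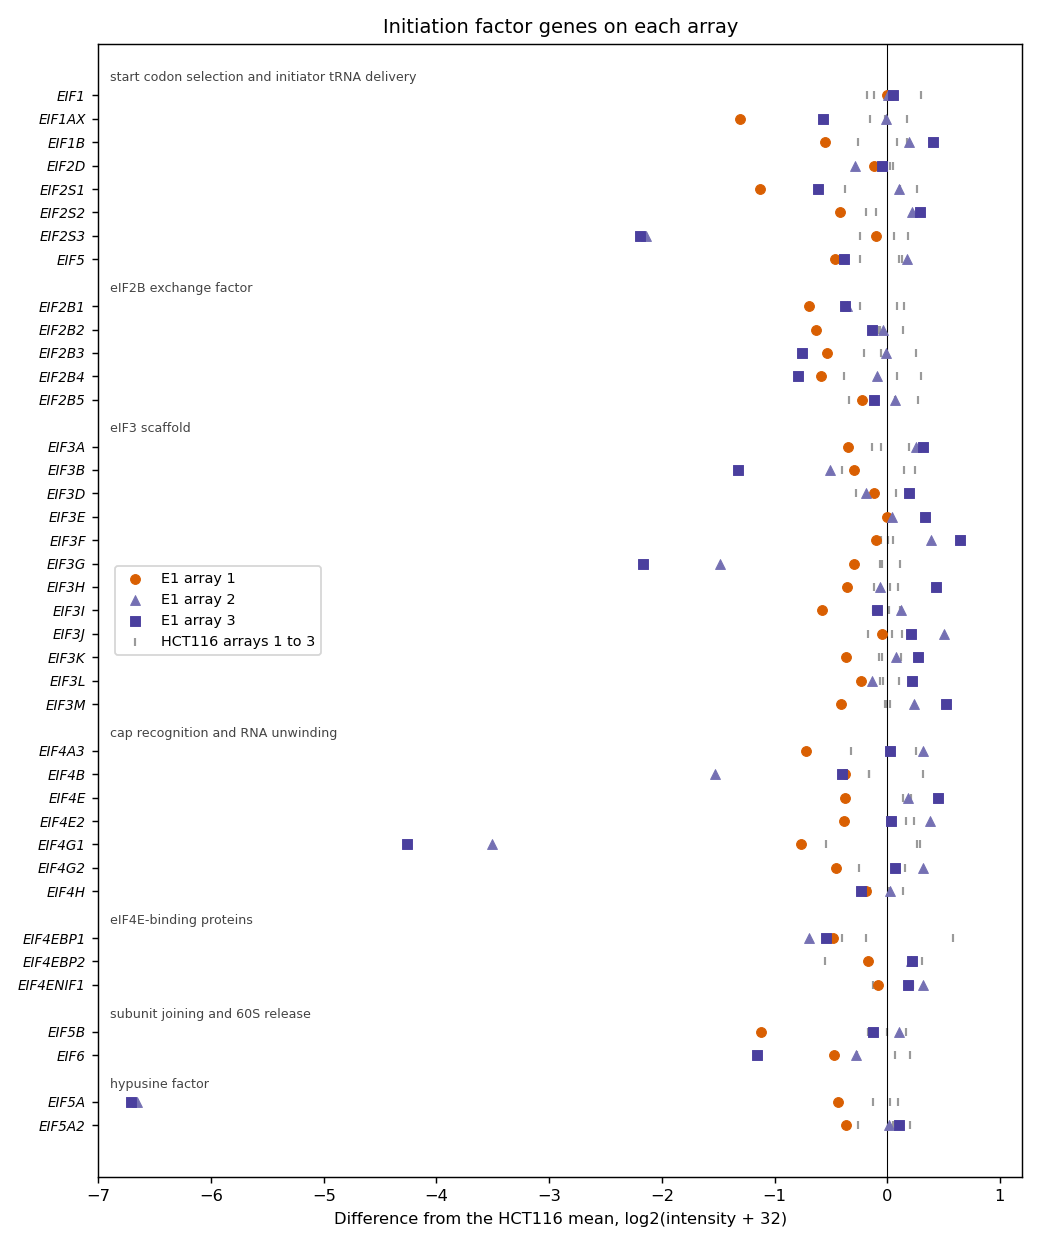
Difference of each array from the HCT116 mean on the log2(intensity + 32) scale, 1 row per initiation factor gene, grouped by role, with each E1 array as its own symbol and the HCT116 arrays as grey ticks. Most points lie within 1 unit of 0, E1 array 1 is often the leftmost point, and E1 arrays 2 and 3 lie far to the left for EIF5A, EIF4G1, EIF2S3 and EIF3G.

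EIF5A, the hypusine-bearing factor, had the largest fold change of the family. Its probe set read 3912 on E1 array 1 and 21.1 and 19.0 on E1 arrays 2 and 3, against 5687, 4881 and 5410 in HCT116. E1 array 1 was at 0.734 of the HCT116 mean, and E1 arrays 2 and 3 averaged 0.00376 of it. The log2 fold change was -4.60 (SE 1.63, adjusted p = 0.284) with all arrays, -0.44 with E1 array 1 alone and -6.68 with E1 arrays 2 and 3 alone (adjusted p = 0.000114). On both other probe sets of EIF5A, E1 arrays 2 and 3 were again far below E1 array 1, which overlapped HCT116 on the second. The first read 1864, 198 and 118 in E1 and 2784, 1936 and 2601 in HCT116, and the second 1186, 164 and 127 in E1 and 1587, 1125 and 1458 in HCT116. EIF5A2, the paralog of EIF5A that few adult tissues express, was dim on every array, at 38.6, 60.4 and 66.3 in E1 and 73.2, 44.2 and 62.8 in HCT116, with overlapping lines and a fold change of -0.08 (SE 0.20).

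EIF4G1, the scaffold of the cap-binding complex, also had all E1 arrays below HCT116. It read 665, 72.3 and 29.97 in E1 and 1390, 780 and 1416 in HCT116, which is -2.84 on the log2 scale (SE 0.86, adjusted p = 0.243). E1 array 1 alone gave -0.77 and E1 arrays 2 and 3 alone -3.88 (adjusted p = 0.00368). Its other probe set, 208624_s_at, was low on all 3 E1 arrays alike, at 116, 116 and 93.3, against 403, 269 and 363 in HCT116. In the fit over all 22215 single probe sets this was the 1 member called, lower, at -1.41 (SE 0.17, adjusted p = 0.0348), where 0.554% of all probe sets were called lower and 0.216% higher. Of the 81 member probe sets, an unadjusted p under 0.05 was reached by 3 that were higher, against 4.75% of all probe sets, and 12 that were lower, against 11.7%. With E1 array 1 alone the same probe set stood at -1.33 and was not called (adjusted p = 0.265), and with E1 arrays 2 and 3 it stood at -1.45 (adjusted p = 0.0139). E1 array 1 lay within the other E1 arrays' range on this probe set and far above them on the brighter one.

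EIF2S3 encodes the gamma subunit of eIF2, which binds GTP and the initiator tRNA, and is read by a single probe set. It gave 709, 148 and 142 in E1, against 639, 797 and 874 in HCT116. E1 array 1 lay inside the HCT116 range and the other E1 arrays far under it. The log2 fold change was -1.48 (SE 0.56, adjusted p = 0.307) with all arrays, -0.10 with E1 array 1 alone and -2.17 (adjusted p = 0.00273) with E1 arrays 2 and 3. EIF3G, an RNA-binding subunit of eIF3 with a role in scanning, read 1134, 481 and 288 in E1 and 1524, 1354 and 1338 in HCT116, so all E1 arrays were below. It stood at -1.32 (SE 0.44, adjusted p = 0.271) with all arrays, at -0.30 with E1 array 1 alone and at -1.83 (adjusted p = 0.00929) with E1 arrays 2 and 3.

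With E1 arrays 2 and 3 standing for E1, these 4 genes were the members called, all lower, where 7.33% of all genes were called lower and 1.64% higher. Of the 5802 genes with a mean intensity of at least 100, 670 were called lower and 148 higher. Over single probe sets on the same arrays, 2 of the 81 were called higher, against 1.80% of all probe sets, and 8 lower, against 8.82%. The 2 higher ones read EIF4B and EIF4E, and the 8 lower ones read those 4 genes and EIF2S1. At an unadjusted p under 0.05, 2 members were higher on these arrays, EIF3F and EIF3M, against 9.86% of all genes, and 6 were lower, against 14.7%. Among the 5802 brighter genes, 870 were higher and 1208 lower at that threshold. With E1 array 1 standing for E1, 0 members were called in either direction, where 0.00836% of all genes were called higher and 0.00836% lower, and the smallest adjusted p among them was 0.287. Both E1 arrays 2 and 3 read under 0.25 of E1 array 1 for EIF5A, EIF4G1 and EIF2S3, 3 of the 38 members with a mean intensity of at least 100, against 3.43% of all such genes. In 7 of the 39 genes both of these arrays lay below the other 4, which held for 17.1% of all genes and 21.3% of the brighter ones. The GAPDH 3′ to 5′ ratio was high on the same 2 arrays. That of the ACTB control was 46.1 and 89.9 there, against 0.930 to 1.12 on the other arrays. The part of these ratios in the readings and calls from E1 arrays 2 and 3 was not tested. E1 array 1, whose GAPDH ratio was near those of HCT116, read 0.557 of the HCT116 mean for EIF4G1, 0.734 for EIF5A, 0.807 for EIF3G and 0.921 for EIF2S3. The 39 genes are not independent and are read by different probe sets. Across them, Pearson's r with the HCT116 arrays was 0.964 to 0.977 for E1 array 1. It was 0.632 to 0.679 for E1 arrays 2 and 3. Over all genes, r was 0.957 to 0.963 for E1 array 1 and 0.897 to 0.939 for E1 arrays 2 and 3. The members' median difference from the HCT116 mean was 0.02 on E1 array 2 and -0.04 on E1 array 3. On these arrays EIF5A differed from that mean by -6.65 and -6.71, and EIF4G1 by -3.51 and -4.26. The part of these 2 genes in the members' lower r was not tested.

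**Figure D2:**
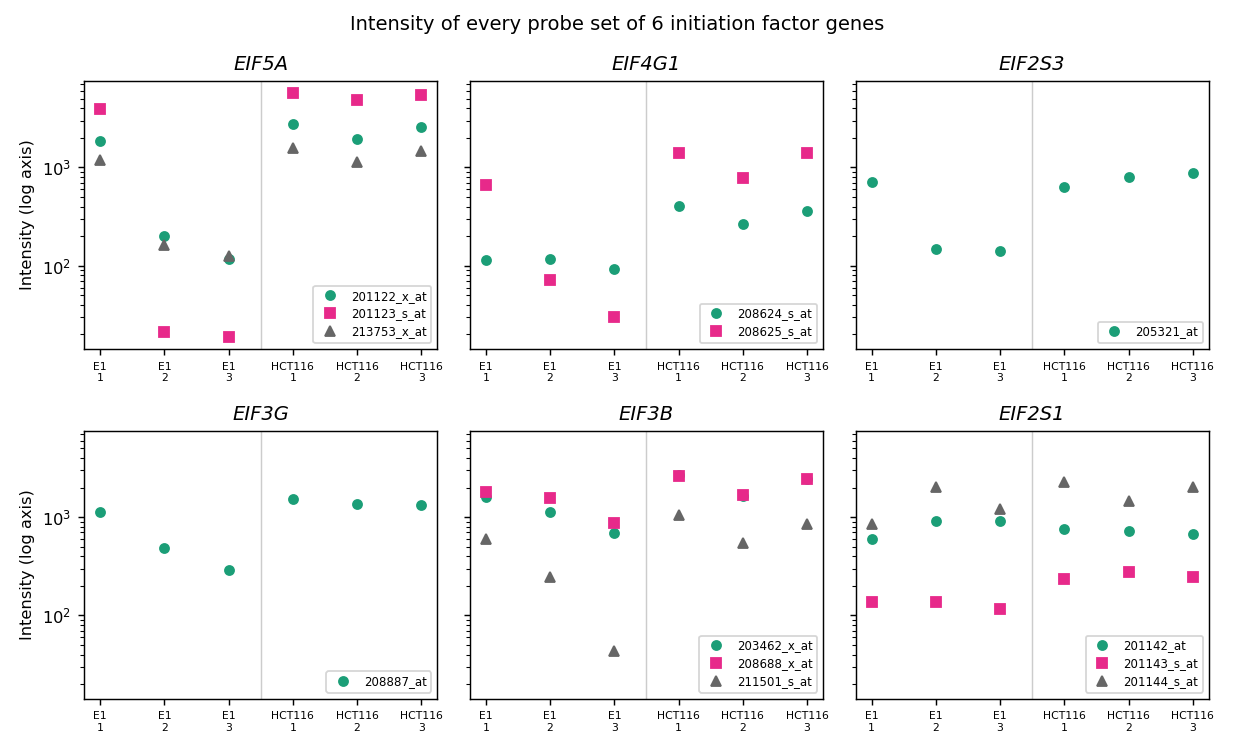
Intensity on a log axis of every probe set of EIF5A, EIF4G1, EIF2S3, EIF3G, EIF3B and EIF2S1 on the 3 E1 arrays, left, and the 3 HCT116 arrays, right, with 1 symbol per probe set. The EIF5A probe sets lie near HCT116 on E1 array 1 and at 198 or less on E1 arrays 2 and 3, whereas EIF4G1 probe set 208624_s_at is at 116 or less on all E1 arrays.

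**Figure D3:**
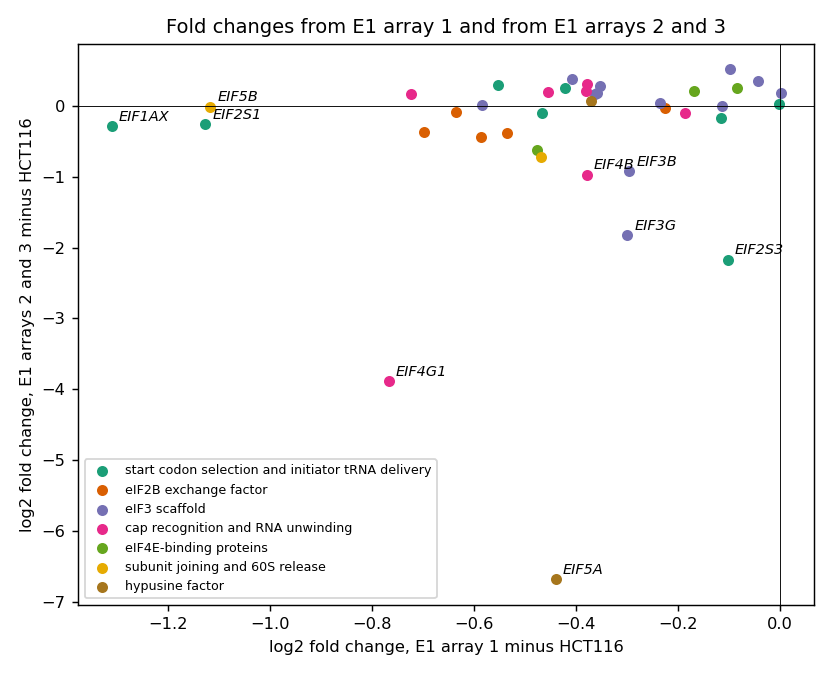
Log2 fold change against HCT116 from E1 array 1 alone, horizontal axis, and from E1 arrays 2 and 3, vertical axis, for the 39 genes coloured by role. EIF5A, EIF4G1, EIF2S3 and EIF3G are low on the vertical axis at -1.83 or less, and EIF1AX, EIF5B and EIF2S1 are low on the horizontal axis at -1.12 or less.

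E1 array 1 was the lowest of the 6 arrays for 19 of the 39 genes and the highest for 0, where all genes gave 20.6% and 13.1%, and genes with a mean intensity of at least 100 gave 28.9% and 7.46%. The members' median difference from the HCT116 mean was -0.38 on E1 array 1, 0.02 on E1 array 2 and -0.04 on E1 array 3, beside -0.05, -0.03 and 0.05 for all genes. Brighter genes had a median of -0.15 on E1 array 1. Taken alone, E1 array 1 had 6 members lower at an unadjusted p under 0.05, against 7.05% of all genes, and 0 were higher, against 4.44%, with p-values from the single E1 array as described above.

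**Figure D4:**
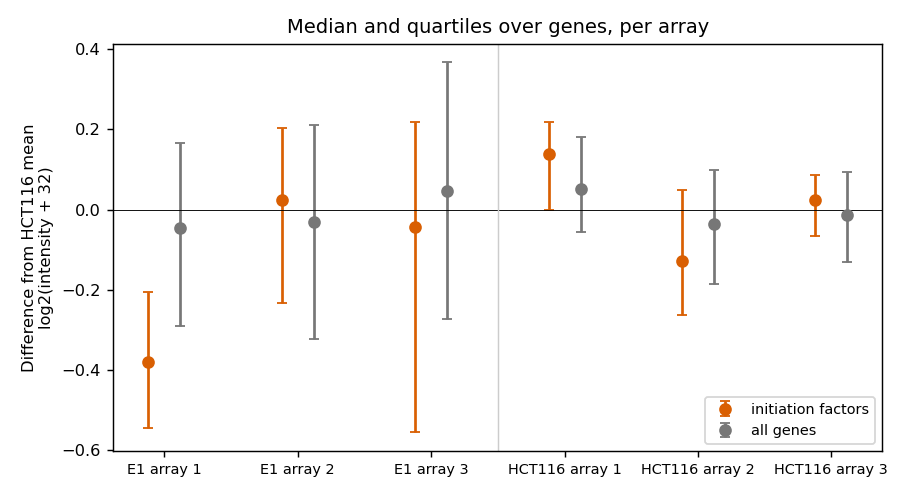
Median (points) and quartiles (bars) over genes of the difference from the HCT116 mean, log2(intensity + 32), for the 39 initiation factor genes and for all 11963 genes on each array. The members' median on E1 array 1 is -0.38, below those of the other 5 arrays.

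Among the genes low on E1 array 1 was EIF1AX, the X-linked gene of eIF1A, which steadies the scanning ribosome. It read 314, 820 and 548 in E1 and 939, 739 and 813 in HCT116, at -0.63 (SE 0.32, adjusted p = 0.422) over the 6 arrays and -1.31 with E1 array 1 alone, where it was not called (adjusted p = 0.287). With E1 arrays 2 and 3 it was -0.29. Its other probe sets, 201016_at, 201017_at and 201018_at, stood at -0.12, -0.33 and 0.25 over the 6 arrays, so its probe sets disagreed in sign. They gave -0.73, -0.39 and -0.21 with E1 array 1 alone, and 0.19, -0.29 and 0.48 with E1 arrays 2 and 3. EIF5B, the GTPase of subunit joining, read 249, 622 and 525 in E1 and 652, 509 and 577 in HCT116, at -1.12 with E1 array 1 alone (adjusted p = 0.301, not called) and -0.01 with E1 arrays 2 and 3. On the probe sets whose readings are given, E1 array 2 lay inside the HCT116 range for both genes, and E1 array 3 for EIF5B. EIF2S1, the alpha subunit of eIF2 that stress kinases phosphorylate, read 846, 2028 and 1221 in E1 and 2275, 1445 and 2035 in HCT116, at -0.55 (SE 0.34, adjusted p = 0.503). Another of its probe sets, 201143_s_at, was low on every E1 array, at 138, 137 and 116, against 234, 277 and 244 in HCT116, but was not called over the 6 arrays, at -0.80 (SE 0.12, adjusted p = 0.0601). It was -0.73 with E1 array 1 alone and was called with E1 arrays 2 and 3, at -0.84 (adjusted p = 0.0226). The third, 201142_at, read 596, 922 and 920 in E1 and 750, 715 and 666 in HCT116, so the lines overlapped and the probe sets of this gene disagreed in sign.

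Of the remaining factors for start codon selection and tRNA delivery, none approached a call. EIF1, which enforces the start codon, overlapped between the lines, at 6047, 6086 and 6274 in E1 and 5585, 7447 and 5326 in HCT116, a fold change of 0.02 (SE 0.17). Its paralog EIF1B read 426, 736 and 860 in E1 and 727, 528 and 679 in HCT116, at 0.02 (SE 0.28). EIF2S2, the beta subunit of eIF2, stood at 0.03 (SE 0.24), EIF5, which triggers GTP hydrolysis by eIF2, at -0.23 (SE 0.22), and EIF2D, which can deliver tRNA without GTP, at -0.15 (SE 0.13).

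All 5 subunits of eIF2B, the exchange factor that limits initiation under stress, had negative fold changes, from -0.49 for EIF2B4 to -0.09 for EIF2B5. Fold changes were negative for 26 of the 39 members and for 6095 of the 11963 genes. EIF2B1, its alpha subunit, had E1 wholly below HCT116, at 401, 516 and 509 in E1 and 716, 563 and 749 in HCT116. It stood at -0.48 (SE 0.17, unadjusted p = 0.0302, adjusted p = 0.292). E1 array 1 alone gave -0.70 and E1 arrays 2 and 3 -0.37, so both kinds of array gave the same sign. EIF2B4, the delta subunit, overlapped between the lines on its brighter probe set, at 424, 611 and 363 in E1 and 809, 493 and 692 in HCT116. On its other probe set, 209429_x_at, E1 was again wholly below, at 338, 415 and 311, against 547, 465 and 525 in HCT116. That was -0.50 (SE 0.15, unadjusted p = 0.0134, adjusted p = 0.191), with -0.56 from E1 array 1 alone and -0.47 from E1 arrays 2 and 3. EIF2B2, EIF2B3 and EIF2B5 overlapped. Subtracting array medians turned EIF2B5 to 0.06.

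The 12 measured subunits of eIF3 had a median of -0.00, with 6 fold changes of each sign. EIF3B, part of the core that holds the complex together, was read by 3 probe sets. The brightest gave 1802, 1548 and 865 in E1 and 2647, 1678 and 2461 in HCT116, at -0.71 (SE 0.31, adjusted p = 0.353), with -0.30 from E1 array 1 alone and -0.92 from E1 arrays 2 and 3. Without E1 array 3 it was -0.40. On 203462_x_at all E1 arrays were below, at 1599, 1129 and 696, against 2657, 1635 and 2430 in HCT116, a difference of -1.001 (SE 0.34, unadjusted p = 0.0236, adjusted p = 0.239). On 211501_s_at E1 read 597, 247 and 43.2 and HCT116 1058, 544 and 859, at -1.80 (SE 0.76). All 3 probe sets had E1 array 3 as their lowest array. EIF3A, the largest subunit, stood at 0.07 (SE 0.22) and EIF3E, which contacts the cap complex, at 0.13 (SE 0.14). EIF3F, an eIF3 subunit with the most positive value of the family, read 2500, 3511 and 4197 in E1 and 2683, 2770 and 2582 in HCT116, at 0.31 (SE 0.21, adjusted p = 0.535). E1 array 1 lay below HCT116 there and E1 arrays 2 and 3 above. EIF3D, EIF3H, EIF3I, EIF3J, EIF3K, EIF3L and EIF3M lay between -0.18 and 0.22, none with separate lines.

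In the cap-binding group, EIF4E overlapped between the lines on its brightest probe set, at 944, 1408 and 1699 in E1 and 1432, 967 and 1363 in HCT116, a fold change of 0.08 (SE 0.26, adjusted p = 0.932). A dimmer one, 201436_at, had all E1 arrays above, at 133, 198 and 283, against 104, 111 and 123 in HCT116, at 0.66 (SE 0.24, adjusted p = 0.266). It stood at 0.19 with E1 array 1 alone and was called with E1 arrays 2 and 3, at 0.90 (adjusted p = 0.0365). EIF4E2, a cap-binding homologue linked to repression, stood at 0.01 (SE 0.26), while its probe set 209393_s_at read 229, 278 and 227 in E1 and 455, 303 and 423 in HCT116, at -0.61 (SE 0.18, adjusted p = 0.195). Of 12 genes listed for cap recognition and unwinding, 7 were measured, and the helicase genes EIF4A1 and EIF4A2 were not among the 39 members. EIF4B, which stimulates the helicase, differed among its 3 probe sets. Its brightest read 1845, 813 and 1811 in E1 and 2153, 3012 and 2155 in HCT116, at -0.77 (SE 0.34, adjusted p = 0.356), with E1 array 2 lowest and -0.39 without that array. E1 array 1 alone gave -0.38 and E1 arrays 2 and 3 gave -0.97. On 211938_at the lines overlapped at 0.06 (SE 0.20), and on 219599_at E1 read 251, 349 and 393, wholly above HCT116 at 185, 231 and 184, at 0.63 (SE 0.19, adjusted p = 0.198). This probe set stood at 0.29 with E1 array 1 alone and was called with E1 arrays 2 and 3, at 0.80 (adjusted p = 0.0312). EIF4G2, a scaffold relative that does not bind the cap protein, read 2395, 4118 and 3455 in E1 and 3687, 2769 and 3503 in HCT116, at -0.02 (SE 0.23). EIF4H, another helicase cofactor, stood at -0.13 (SE 0.15) and EIF4A3, the helicase homologue of the exon junction complex, at -0.13 (SE 0.30).

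Among the proteins that hold eIF4E back, EIF4EBP1, the best known mTOR substrate of the group, read 665, 570 and 634 in E1 and 821, 1424 and 704 in HCT116. The arrays did not overlap, and HCT116 array 2 stood well above the other HCT116 arrays. The fold change was -0.57 (SE 0.27, adjusted p = 0.378), with -0.48 from E1 array 1 alone and -0.62 from E1 arrays 2 and 3. Leaving out HCT116 array 2 gave -0.28, and leaving out HCT116 array 3 gave -0.77. EIF4EBP2 stood at 0.09 (SE 0.26) and EIF4ENIF1, which carries eIF4E into the nucleus, at 0.14 (SE 0.17). EIF6 read 1101, 1263 and 672 in E1 and 1767, 1273 and 1611 in HCT116, so all E1 arrays were below, E1 array 2 by a narrow margin from HCT116 array 2. It stood at -0.63 (SE 0.26, unadjusted p = 0.0484, adjusted p = 0.332), with -0.47 from E1 array 1 alone, -0.72 from E1 arrays 2 and 3, and -0.37 without E1 array 3.

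The 7 genes whose sequences with a pyrimidine start are printed above did not share a direction. EIF2D, EIF3D, EIF3F, EIF3K and EIF3M lay between -0.15 and 0.31, whereas EIF4B stood at -0.77 and EIF2S3 at -1.48. With E1 array 1 alone the same 7 genes lay between -0.41 and -0.10. EIF4E and EIF4G1, each with 2 E-boxes and picked because their values differed, stood at 0.08 and -2.84 over the 6 arrays. EIF5A2, also with 2, stood at -0.08. The members with 1 E-box lay between -0.77 for EIF4B and 0.31 for EIF3F. On E1 array 1 alone EIF4E and EIF4G1 stood at -0.38 and -0.77, and with E1 arrays 2 and 3 at 0.32 and -3.88.

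Genes that work with the initiation factors gave no call over the 6 arrays, and some on E1 arrays 2 and 3. Their counts at p under 0.05 before adjustment stand beside 5.29% of all genes higher and 9.70% lower, and their calls on E1 arrays 2 and 3 beside 1.64% higher and 7.33% lower. Of 11 measured elongation and termination factors 0 were called. Before adjustment, p was under 0.05 for 1 that was higher and 2 that were lower, and the median was -0.03. On E1 arrays 2 and 3, 1 was called higher, GSPT1, and 2 lower, EEF1A2 and EEF2. EEF1A2, a tissue-restricted form of the factor that brings aminoacyl-tRNA to the ribosome, split the arrays as EIF5A did, at 2692, 36.3 and 40.3 in E1 and 2846, 3176 and 2696 in HCT116. The fold change over all 6 arrays was -3.62 (SE 1.38, adjusted p = 0.309), and E1 array 1 alone gave -0.11. Of 20 poly(A)-binding and other cap-side partners, 0 were called, 3 higher and 1 lower passed that unadjusted threshold, and the median was 0.16. On E1 arrays 2 and 3, PAIP1 and BZW2 were called higher and CTIF, a partner of the nuclear cap-binding complex, lower. Of 25 genes that signal to the initiation factors, 0 were called, 1 was higher and 4 lower at that threshold, and the median was -0.06. On E1 arrays 2 and 3, 4 were called lower, the kinases AKT1 and RPS6KB2 and the mTOR pathway members TSC2 and MLST8. MLST8, a subunit of the mTOR complexes, read 217, 11.2 and 40.2 in E1 and 265, 272 and 285 in HCT116, at -1.74 (SE 0.60, adjusted p = 0.280) over the 6 arrays, while E1 array 1 alone gave -0.30. RPS6KB2, an S6 kinase, stood at -0.84 (SE 0.28, adjusted p = 0.269), with -0.28 from E1 array 1 alone and -1.12 from E1 arrays 2 and 3 (adjusted p = 0.0259). AKT1 read 601, 117 and 110.2 in E1 and 567, 435 and 521 in HCT116, with 0.24 from E1 array 1 alone and -1.88 from E1 arrays 2 and 3 (adjusted p = 0.00335).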

How the data were processed

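The deposited table holds the intensity of 22283 probe sets on each of 6 arrays, on a linear scale, as the authors made it. Trizol extraction and biotin labelling are recorded per the labels' protocols. How the authors summarized, background-corrected and scaled them is not stated in those labels, and detection calls were not used here. Values were used as log2(intensity + 32) with no further scaling. Tests left out 68 controls. Of 22215 others, 19065 had 1 symbol in the platform annotation, giving 11963 genes. Symbols were checked by Entrez number against RefSeq, and 0 changed.

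The lines were set against each other in R 4.3.3 by limma 3.58.1, with a two-sided moderated test, no trend in the variance prior, and Benjamini-Hochberg adjustment across all genes. Precision is limited by 3 arrays per line. On data simulated for E1 against HCT116 over 11963 genes, 39.8%, 83.4% and 94.0% of genes changed by 1, 2 and 3 on the log2 scale were recovered. These shares cannot be carried over to genes on which the E1 arrays split, because the spread within E1 was large there. In the measured data EIF5A at -4.60 (SE 1.63) and EIF4G1 at -2.84 (SE 0.86) were not called with all arrays.

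Members, lists and the rule for named genes were chosen with earlier results of these data known. The rule names members at an unadjusted p under 0.05, the leading member of each role, members whose brighter probe sets differ by over 1, listed paralogs, and the 2 genes of lowest p per list. Further members and single probe sets are named, chosen after their values were seen. Alternatives were quantile normalization, subtraction of array medians, offsets of 1 and 100, leaving out the dimmest 40% of genes, the mean of probe sets, no _x_at or _s_at probe sets, trended robust eBayes, the replicate block, E1 array 1 alone, single probe sets, a threshold of 0.01, and each array left out. Promoter sequences are from RefSeq, GRCh38.p14.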

Additional observations from a re-analysis of the deposited data

How the results depend on the processing

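Of 11963 genes, 50 were called, 26 higher and 24 lower. The count was 10 with an offset of 100, 8 without _x_at and _s_at probe sets, 2 with E1 array 1 alone, 3 at a threshold of 0.01, and 171 of 22215 over single probe sets. Same-numbered arrays of the lines deviated with correlations of -0.056, -0.363 and -0.116, and differently numbered ones with -0.142 to 0.248. The labels state no pairing. These values cannot decide whether arrays were paired, because E1 array 1 differed from the other E1 arrays. With the replicate block 2 genes were called, 0 members were called and 3 members were lower at unadjusted p under 0.05. Leaving out 1 array gave 2 to 1073 genes, with 1073 without E1 array 1, 17 and 9 without E1 arrays 2 and 3, and 2, 3 and 3 without HCT116 arrays 1, 2 and 3.

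Members called higher numbered 0 in every alternative run. Members called lower numbered 0 throughout, except 1 over single probe sets and 4 without E1 array 1, a range of 0 to 4 over arrays left out. At unadjusted p under 0.05, 1 member was higher and 3 lower without _x_at and _s_at probe sets, and 3 single probe sets were higher. Over arrays left out the counts were 0 to 2 higher and 1 to 6 lower, with 3 lower without E1 array 3, and 1 and 2 lower without HCT116 arrays 1 and 3. The members' median moved to -0.38 with E1 array 1 alone, and ranged from -0.21 to -0.00 over arrays left out. Subtracting array medians shifted the median of all genes from -0.01 to 0.14 and that of the members to 0.02, so small fold changes are read relative to it.

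Signs of small fold changes turned. Without _x_at and _s_at probe sets EIF1 was -0.65, EIF2S1 0.16, EIF2S2 -0.50, EIF4EBP2 -0.63 and EIF5 0.21. With E1 array 1 alone EIF1 was -0.0010, EIF1B -0.55, EIF2S2 -0.42, EIF3A -0.35, EIF3F -0.10, EIF3H -0.36, EIF3J -0.042, EIF3M -0.41, EIF4E -0.38, EIF4E2 -0.38, EIF4EBP2 -0.17 and EIF4ENIF1 -0.084. With quantile normalization EIF2B5 was 0.064, EIF3K 0.0051, EIF4G2 0.026 and EIF5A2 0.072. With array medians subtracted EIF2B5 was 0.058, EIF2D 0.00064, EIF3D 0.11, EIF3K 0.14, EIF3L 0.10, EIF4A3 0.022, EIF4G2 0.13, EIF4H 0.018 and EIF5A2 0.068. With the mean of probe sets EIF2S2 was -0.24, EIF4E2 -0.19, EIF4EBP2 -0.27 and EIF5 0.055.

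Over arrays left out the ranges that crossed 0 were -0.072 to 0.17 for EIF1, -0.18 to 0.30 for EIF1B, -0.26 to 0.046 for EIF2B5, -0.10 to 0.25 for EIF2S2, -0.050 to 0.28 for EIF3A, -0.18 to 0.062 for EIF3D, -0.21 to 0.18 for EIF3H, -0.34 to 0.017 for EIF3I, -0.14 to 0.17 for EIF3K, -0.19 to 0.040 for EIF3L, -0.083 to 0.38 for EIF3M, -0.35 to 0.17 for EIF4A3, -0.10 to 0.32 for EIF4E, -0.19 to 0.21 for EIF4E2, -0.19 to 0.25 for EIF4EBP2, -0.19 to 0.19 for EIF4G2 and -0.21 to 0.063 for EIF5A2. The 4 members called without E1 array 1 ranged from -6.68 to -3.55 for EIF5A, -3.88 to -2.14 for EIF4G1, -2.17 to -1.12 for EIF2S3 and -1.83 to -0.89 for EIF3G. Without changing sign, EIF1AX was -0.29 without E1 array 1, EIF2S1 was -0.25 without E1 array 1 and -0.87 without E1 array 2, and EIF2B3 was -0.27 without E1 array 3. The cause of these shifts was not tested. With 3 arrays per line, and without detection calls, small differences and dim probe sets are limited most.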

Other observations

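Among the cap-side partners, BZW2, a protein that resembles eIF5 and competes with it, was higher on every E1 array, E1 array 1 included. It read 2424, 2800 and 3283 in E1 and 1642, 1735 and 1889 in HCT116, a log2 fold change of 0.67 (SE 0.16, unadjusted p = 0.00442) that missed the threshold over all genes (adjusted p = 0.168). E1 array 1 alone gave 0.46, and E1 arrays 2 and 3 gave 0.78, where it was called (adjusted p = 0.0347). PAIP1, which links poly(A)-binding protein to initiation factors, read 663, 1046 and 1451 in E1 and 507, 564 and 587 in HCT116, at 0.83 (SE 0.28, adjusted p = 0.271), with 0.25 from E1 array 1 alone and 1.12 from E1 arrays 2 and 3 (adjusted p = 0.0218). PABPC1, the main cytoplasmic poly(A)-binding protein, overlapped, at 0.07 (SE 0.14). GSPT1, the release factor eRF3, stood at 0.76 (SE 0.29, adjusted p = 0.307), with 0.22 from E1 array 1 alone and 1.02 from E1 arrays 2 and 3 (adjusted p = 0.0481). The translocase EEF2 stood at -0.58 (SE 0.24, adjusted p = 0.326), with -0.12 from E1 array 1 alone and -0.81 from E1 arrays 2 and 3 (adjusted p = 0.0452).

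Of 32 measured cytosolic ribosomal protein genes, 0 were called in limma over the 6 arrays. Before adjustment, p was under 0.05 for 1 higher gene and 1 lower gene, beside 5.29% and 9.70% of all genes. On E1 arrays 2 and 3, RPLP2 was called higher (0.90, adjusted p = 0.0484) and RPL8 lower (-0.78, adjusted p = 0.0317), beside 1.64% and 7.33% of all genes. Their median log2 fold change was -0.00 with all arrays, -0.03 with E1 array 1 alone and 0.03 with E1 arrays 2 and 3, while the initiation factors stood at -0.13, -0.38 and -0.00. RPL8 read 8450, 6042 and 5567 in E1 and 9582, 10955 and 9430 in HCT116, at -0.60 (SE 0.19, adjusted p = 0.261) over the 6 arrays and -0.24 with E1 array 1 alone. RPLP2 was read by a dim probe set, at 45.1, 46.1 and 55.6 in E1 and 5.27, 22.1 and 11.1 in HCT116, at 0.87 (SE 0.18, adjusted p = 0.136) over the 6 arrays and 0.80 with E1 array 1 alone. KRT8, whose readings are given above, stood at -2.91 (SE 1.03, adjusted p = 0.284) over the 6 arrays and -0.48 with E1 array 1 alone.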
